A study of Mus musculus with 18 samples.

Results

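Collagen and laminin genes were followed through hippocampus and cortex of mice that had received urban particulate matter through the nose. The genes were taken by symbol, as every collagen chain (Col, a number, a and a number) and every laminin chain (Lama, Lamb or Lamc and a number) with at least 10 counts in 4 or more of the 18 libraries. Of 55 such symbols, 46 met this minimum: 36 of 44 collagen chains and 10 of 11 laminin chains, out of 14332 genes of any kind that met it and 23238 distinct symbols in all. The chains that did not were Col2a1, Col4a3, Col6a6, Col9a1, Col10a1, Col17a1, Col20a1, Col28a1 and Lamb3. Col6a4 and Col6a5 met the minimum with 4 libraries, and Col17a1 and Col20a1 missed it with 3.

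The mice were male C57BL/6, 7 weeks old at the start, and received either phosphate-buffered saline (PBS, the vehicle) or the reference dust SRM1648a, an urban particulate matter (UPM), by the intranasal route. Short-term UPM was given daily for 3, 5 or 7 days, and long-term UPM 2 times per week for 3, 8, 12, 16 or 20 weeks. Each library came from RNA pooled over a group's mice, which left 1 control library, 3 short-term libraries and 5 long-term libraries per tissue. How long the control mice received PBS is not given in the sources used here, and libraries of different times stand in for replicates, so that p-values measure the spread between pooled libraries and not between mice. Exposure length also goes with the age of the mice and the dosing rhythm.

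Collagens are matrix proteins whose chains wind around each other into a helix. Fibrillar collagens (types I, III, V, XI, XXIV and XXVII) build fibres, collagen IV builds the mesh of basement membranes, and collagen VI builds beaded filaments beside them. Laminins are cross-shaped proteins of an alpha, a beta and a gamma chain that give basement membranes their first layer. In the brain, healthy neural tissue holds little fibrillar collagen: most collagen and laminin sits in the basement membranes of vessels and of the pial surface, in the meninges and in the stroma of the choroid plexus, while a few collagens, such as Col25a1 and Col19a1, are made by neurons.

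Col4a1 and Col4a2, whose products assemble together, are read away from each other from 1 short stretch of chromosome 8. Their starts in the GENCODE M21 annotation (GRCm38, the assembly of mm10) are 21 bases apart. Of the 46 genes, 33 had a promoter window in the RefSeq table used here (GRCm38.p6, 250 bases before to 50 after the start). The windows of this pair are shown because both genes differed together between libraries, and those of Col1a2 and Col3a1 because both peaked in the same library. Capitals mark CCAAT or its complement ATTGG, further TATAAA or its complement TTTATA, and GGGCGG or its complement CCGCCC. The Col4a1 window is chr8:11312777-11313076 on the minus strand, the Col4a2 window chr8:11312555-11312854 on the plus strand, the Col1a2 window chr6:4505368-4505667 on the plus strand and the Col3a1 window chr1:45311288-45311587 on the plus strand, each printed 5′ to 3′.
Col4a1: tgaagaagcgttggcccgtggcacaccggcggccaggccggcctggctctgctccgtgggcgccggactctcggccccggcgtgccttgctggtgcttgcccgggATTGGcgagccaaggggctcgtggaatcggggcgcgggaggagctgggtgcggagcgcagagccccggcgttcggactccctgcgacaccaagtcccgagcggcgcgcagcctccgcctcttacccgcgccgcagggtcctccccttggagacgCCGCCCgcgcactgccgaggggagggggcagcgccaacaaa
Col4a2: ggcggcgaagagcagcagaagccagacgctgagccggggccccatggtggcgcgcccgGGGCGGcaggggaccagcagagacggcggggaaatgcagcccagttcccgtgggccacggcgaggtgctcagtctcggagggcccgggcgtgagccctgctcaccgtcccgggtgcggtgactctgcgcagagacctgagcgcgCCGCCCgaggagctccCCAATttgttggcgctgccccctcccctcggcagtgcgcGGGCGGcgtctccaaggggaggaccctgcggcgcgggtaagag
Col1a2: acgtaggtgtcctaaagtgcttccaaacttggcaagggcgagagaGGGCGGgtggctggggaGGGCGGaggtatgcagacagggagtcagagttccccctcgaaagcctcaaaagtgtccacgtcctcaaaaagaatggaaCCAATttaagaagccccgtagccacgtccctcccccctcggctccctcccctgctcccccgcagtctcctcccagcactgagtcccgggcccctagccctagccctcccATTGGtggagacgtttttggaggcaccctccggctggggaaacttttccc
Col3a1: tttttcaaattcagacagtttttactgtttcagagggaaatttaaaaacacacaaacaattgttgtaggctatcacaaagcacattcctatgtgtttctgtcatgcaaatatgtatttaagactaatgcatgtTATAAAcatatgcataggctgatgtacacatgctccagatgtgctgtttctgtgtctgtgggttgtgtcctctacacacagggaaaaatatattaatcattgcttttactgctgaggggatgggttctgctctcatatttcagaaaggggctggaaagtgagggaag
The Col4a1 and Col4a2 windows share 78 bases, which hold a GGGCGG match common to both, at 11312812 to 11312817. A gene was counted for a motif if any of its windows held a match. GGGCGG was held by 72.7% of the 33 collagen and laminin genes (24) and by 38.2% of all 27025 genes of the table. CCAAT was held by 36.4% of the 33 and 41.1% of all, and TATAAA by 9.1% and 15.7%. The 4 windows shown differ in base composition, from 37.7% G and C for Col3a1 to 74.0% for Col4a1, against a median of 52.7% over all windows.

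The libraries held 5.43 to 8.97 M counts, so that 1 count equals 0.112 to 0.184 CPM (counts scaled to a fixed library total) and a floor of 3 counts 0.335 to 0.552 CPM. The column headers of the deposited files are written in 2 styles, which split the libraries into 2 sets. The early set holds 3, 5 and 7 days and 3 weeks (8 libraries), and the control and late set holds the controls and 8 to 20 weeks (10 libraries). The sets differ over the whole transcriptome: 39.3% of 13864 genes passed the test between them. The summed level of 6 nuclear long non-coding RNAs was 3208 to 6883 CPM in the early set and 13940 to 26980 CPM in the other. That sum was taken as a rough gauge of the nuclear share and the state of the RNA, neither of which was measured. Short-term UPM and the control never share a set, so for these the exposure and the set cannot be told apart. Inside hippocampus, the 8-week and 20-week libraries stood apart from the other 7, with the collagen and laminin genes at 682.5 and 1012.9 CPM of the library total, against 201.5 to 479.0 in the rest and 209.7 to 430.7 in cortex. Levels below are CPM scaled by TMM, and fold changes are log2 values of edgeR fits with their standard errors (SE).

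**Figure D1:**
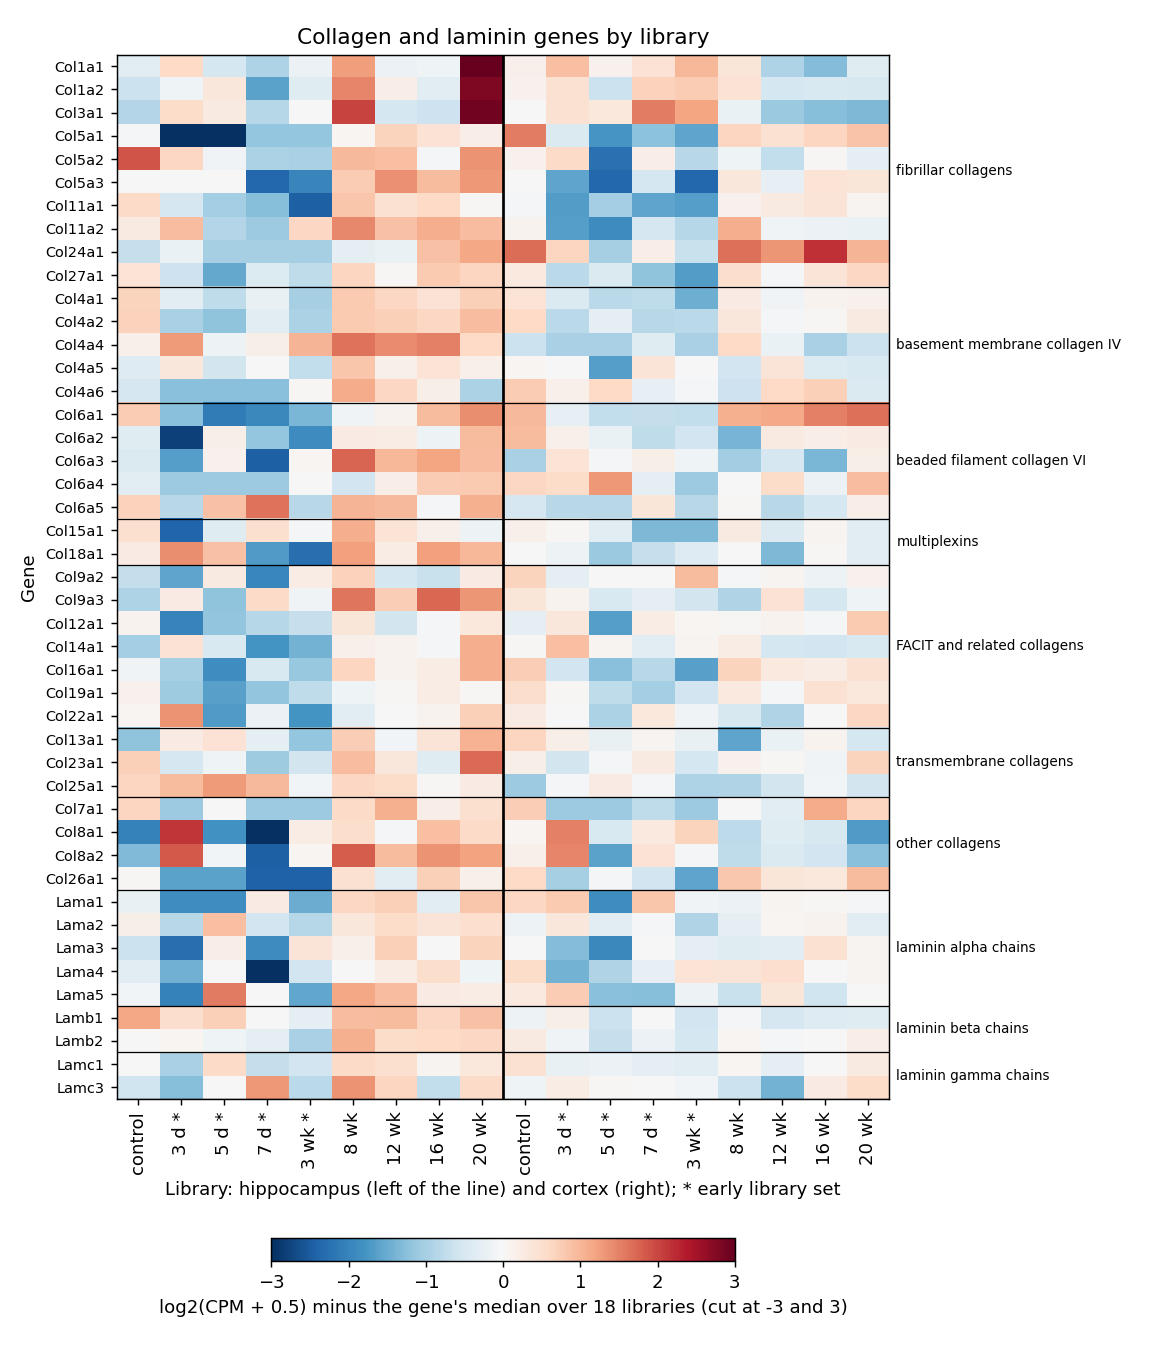
Level of each of 45 of the 46 genes (vertical, by class) in each of the 18 libraries (horizontal, hippocampus left and cortex right of the line, early set marked with an asterisk), as log2(CPM + 0.5) minus the gene's median over the libraries, cut at -3 and 3. Blue cells gather in the early set for Col5a1, Col11a1, Col4a1, Col4a2, Col6a1 and Col26a1, and the darkest red cells are Col1a1, Col1a2 and Col3a1 in hippocampus at 20 weeks.

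The clearest pattern over these genes was a lower level in the early set. Between the sets, 16 of the 41 genes tested were higher in the control and late set (19% of all genes tested were called higher) and 0 were lower (20.3% of all genes). By unadjusted p, 19 passed (46.9% of all genes), 18 higher and 1 lower (Col25a1), with 17 higher and 1 lower in DESeq2 and 20 higher in limma-voom after adjustment. The median log2 difference was 0.72 over the 41 genes and 0 over all genes. Over both tissues, 10 of the 46 had CPM ranges that did not overlap between the sets in hippocampus nor in cortex, each higher in the control and late set (5.04% of all genes), and 0 had them lower (5.85% of all genes). These were Col4a1, Col4a2, Col5a1, Col5a3, Col6a1, Col7a1, Col11a1, Col16a1, Col26a1 and Col27a1, 0 of them a laminin. Of the genes in either count, Col5a3, Col7a1, Col11a2, Col24a1 and Col26a1 had at least 10 counts in fewer than 4 early libraries. They met the count minimum only through the control and late set, so their higher level there is partly fixed by the rule.

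Between the tissues, 9 of the 46 genes passed the test, where 16.7% of all genes did: 5 were higher in hippocampus (7.51% of all genes) and 4 in cortex (9.22%). Of these, Col4a4, Col6a5 and Col24a1 met the count minimum only through the tissue where they were higher. Their direction is therefore partly fixed by the rule. Against the control, 6 of 40 tested genes were lower in short-term UPM and 0 higher (4.9% of all genes passed, 2.76% lower and 2.14% higher), with 1 higher and 6 lower in DESeq2 and 7 lower in limma-voom. The count was 0 without the hippocampal control and 0 without the cortical one. None of 46 passed between long-term UPM and control with edgeR (0 of all genes, 2.17% of all at an unadjusted p under 0.05), DESeq2 or limma-voom, and 2 members had an unadjusted p under 0.05. Between long-term and short-term UPM, 9 of 42 were higher and 1 lower in the long-term libraries (15.8% of all genes passed, 8.41% higher and 7.38% lower). Short-term against control and long-term against short-term share their short-term libraries, and both compare mostly or wholly across the library sets.

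Inside 1 set, where the exposure can be read without the set, little passed. In the control and late set, 0 of 46 genes differed between 8 to 20 weeks of UPM and the control (0 of all genes, and 4.56% of all at an unadjusted p under 0.05) with edgeR, DESeq2 or limma-voom, and 3 had an unadjusted p under 0.05: Col6a3 (1.43 ± 0.54), Col5a2 (-0.82 ± 0.33) and Col5a3 (0.80 ± 0.36). In the early set, 0 of 40 differed between 3 weeks and 3 to 7 days (0 of all genes, 4.3% of all unadjusted) with edgeR or limma-voom, 1 did with DESeq2, and 3 had an unadjusted p under 0.05: Col25a1, Col4a1 and Lamb1, all lower at 3 weeks. Over 8 to 20 weeks, 1 of 45 had a slope that passed (0.301% of all genes), Col6a1. With the library set as a covariate, the count between long-term and short-term UPM went from 10 to 0. Each exposed library of the control and late set is long-term, so this fit rests on 3 weeks against 3 to 7 days and not on 8 to 20 weeks. In it Col11a1, Col16a1, Col27a1 and Col4a2 stood at -0.93, -0.51, -0.49 and -0.19, while they were higher in long-term UPM without the covariate.

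Basement membrane collagen IV was led by Col4a1 and Col4a2, its main chains in vessels. In hippocampus Col4a1 was at 37.3 CPM in the control, 18.6, 13.5 and 19.9 CPM at 3, 5 and 7 days, and 11.3, 40.4, 36.2, 31.3 and 38.3 CPM at 3, 8, 12, 16 and 20 weeks. In cortex Col4a1 was at 31.1 CPM in the control, 17.2, 13.1 and 13.4 CPM at 3, 5 and 7 days, and 8.08, 27.4, 21.5, 25.0 and 25.4 CPM at 3, 8, 12, 16 and 20 weeks. Every early library lay below every control and late library of its tissue, with the 3-week library the lowest in both tissues. Col4a2 in hippocampus was at 27.0 CPM in the control, 8.18, 6.86 and 13.2 CPM at 3, 5 and 7 days, and 8.38, 28.9, 27.7, 25.7 and 31.8 CPM at 3, 8, 12, 16 and 20 weeks. In cortex it was at 25.5 CPM in the control, 9.18, 13.5 and 9.14 CPM at 3, 5 and 7 days, and 9.27, 21.2, 16.2, 16.9 and 19.9 CPM at 3, 8, 12, 16 and 20 weeks. Again the sets did not overlap in either tissue, and the control lay among the late libraries in hippocampus and above them in cortex. The log2 difference between the sets was 1.11 ± 0.13 (SE) for Col4a1 (adjusted p = 2.123e-07) and 1.28 ± 0.15 for Col4a2 (adjusted p = 1.506e-07). As bulk values, these cannot tell fewer vessel cells from less RNA per cell.

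Short-term UPM stood at -1.12 ± 0.23 against the control for Col4a1 (adjusted p = 0.008143) and at -1.42 ± 0.28 for Col4a2 (adjusted p = 0.007247). Within the control and late set the log2 differences of 8 to 20 weeks against the control were -0.17 ± 0.13 and -0.19 ± 0.15, and neither passed. Col4a1 was also higher in hippocampus than in cortex by 0.42 ± 0.10 (adjusted p = 0.007011). Counts of Col4a1 per count of Col4a2 were 1.20 to 2.27 in hippocampus and 0.87 to 1.87 in cortex. The last exon of Col4a1, where a 3′ library reads, overlaps the antisense gene Gm15418, and the strand setting of the counting is not given in the sources used here.

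The other chains of collagen IV were near the floor. Col4a4, which pairs with Col4a3 and Col4a5 in the basement membrane of the kidney filter, had 2 to 23 counts in hippocampus (5 in the control) and 0 to 7 counts in cortex (1 in the control). It was higher in hippocampus by 2.98 ± 0.70 (adjusted p = 0.005076), a value that rests on cortical libraries of which 4 had 0 counts. Col4a4 met the count minimum only through hippocampus, so that direction is partly fixed by the rule. Col4a5 and Col4a6, arranged head to head on the X chromosome with 1309 bases between their starts, had 0 to 21 and 0 to 19 counts and passed in 0 of the comparisons.

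**Figure D2:**
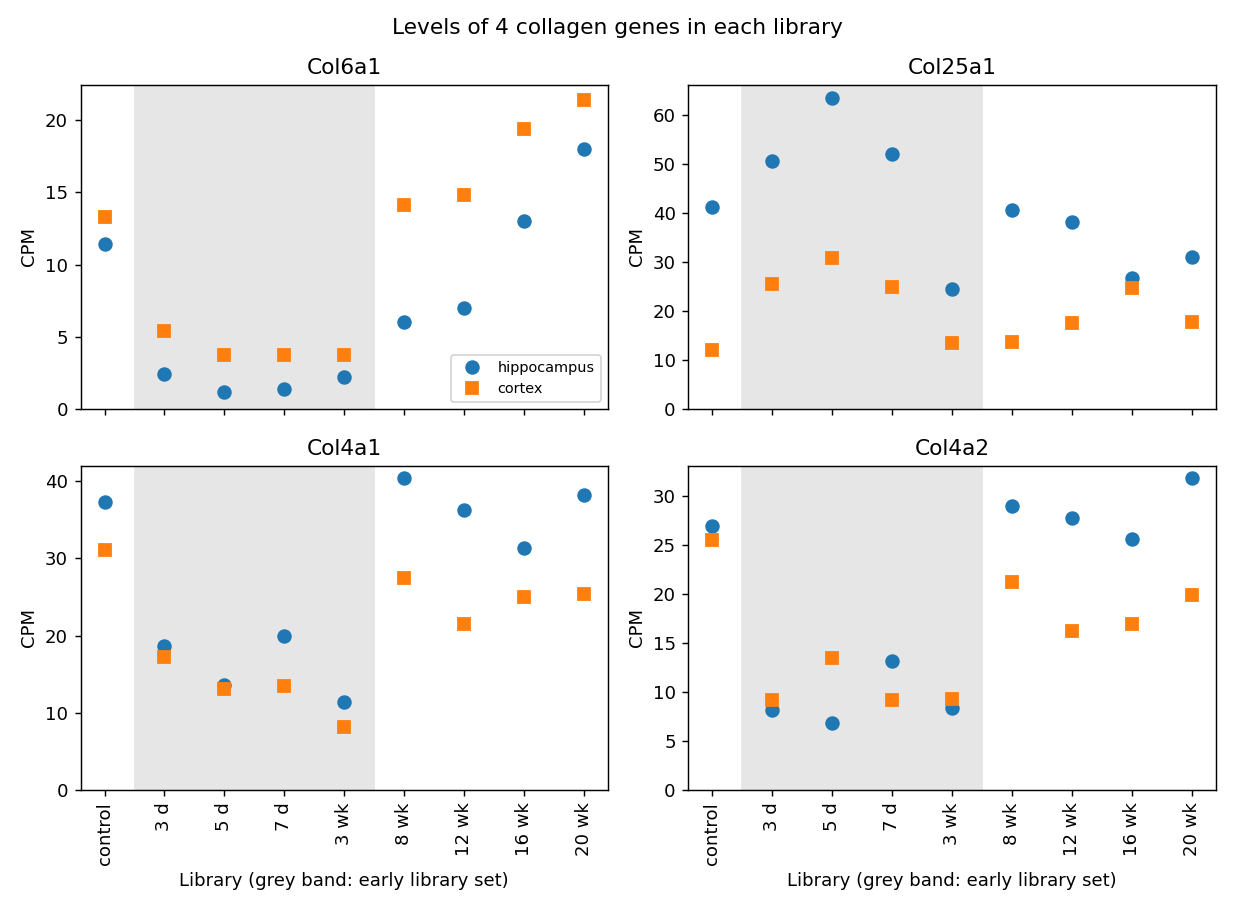
Level (CPM, vertical) of Col6a1, Col25a1, Col4a1 and Col4a2 in each library (horizontal, grey band for the early set), hippocampus as circles and cortex as squares. Col4a1, Col4a2 and Col6a1 are lower in every library of the grey band than in any other library of the same tissue, while Col25a1 is high at 3 to 7 days and drops at 3 weeks inside the band.

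Of the 10 laminin genes, all tested between the sets, 3 were higher in the control and late set: Lama4 (0.95 ± 0.36, adjusted p = 0.03957), a chain of endothelial basement membranes, Lamb2 (0.69 ± 0.15, adjusted p = 0.0006852) and Lamc1 (0.50 ± 0.17, adjusted p = 0.01918). The median over the 10 was 0.43, against 0.80 over the 31 collagens tested. Lamb2, a beta chain of vascular and synaptic laminins, was at 16.7 CPM in the hippocampal control, 17.1, 15.1 and 13.5 CPM at 3, 5 and 7 days, and 8.09, 35.2, 24.3, 25.0 and 25.6 CPM at 3, 8, 12, 16 and 20 weeks. In cortex Lamb2 was at 20.1 CPM in the control, 15.4, 9.92 and 14.4 CPM at 3, 5 and 7 days, and 11.3, 17.2, 15.7, 16.2 and 18.9 CPM at 3, 8, 12, 16 and 20 weeks. The sets overlapped for Lamb2 in hippocampus, where the control lay below the 3-day library, and did not in cortex. Lamc1, the gamma chain of most laminins, ranged from 7.43 CPM (3 days) to 22.7 CPM (8 weeks) in hippocampus and from 11.9 CPM (3 weeks) to 20.7 CPM (control) in cortex, and its sets overlapped in both tissues.

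Lamb1, the beta chain that pairs with Lamc1 in most laminins, was the laminin with the firmest tissue difference. In hippocampus it was at 50.5 CPM in the control, 32.0, 36.8 and 22.1 CPM at 3, 5 and 7 days, and 17.9, 42.4, 43.2, 34.6 and 41.5 CPM at 3, 8, 12, 16 and 20 weeks. Cortical levels were 19.9 CPM in the control, 25.1, 13.9 and 22.2 CPM at 3, 5 and 7 days, and 14.8, 21.5, 15.4, 16.7 and 17.1 CPM at 3, 8, 12, 16 and 20 weeks. Within the control and late set each hippocampal library lay above each cortical one, whereas at 7 days and 3 weeks the tissues were close. The log2 difference was 0.91 ± 0.15 over all libraries (adjusted p = 0.0002737), 1.22 in the control and late set alone (adjusted p = 1.308e-06) and 0.52 in the early set alone, where it did not pass (adjusted p = 0.2767).

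Of the alpha chains, Lama3, of an epithelial laminin, had 0 to 28 counts and stood at 0.18 ± 0.55 between the tissues, which did not pass. Lama2, which vessel wall cells and astrocytes lay down around brain vessels, had 2.35 to 9.14 CPM in hippocampus (control 5.37) and 2.25 to 6.08 CPM in cortex (control 4.19). Lama4 was at 3.39 CPM in the hippocampal control, 1.30, 4.38 and 0 CPM at 3, 5 and 7 days, and 2.79, 4.37, 5.17, 6.50 and 3.95 CPM at 3, 8, 12, 16 and 20 weeks. In cortex it was at 6.60 CPM in the control, 1.31, 2.12 and 3.61 CPM at 3, 5 and 7 days, and 5.96, 5.82, 6.39, 4.37 and 4.62 CPM at 3, 8, 12, 16 and 20 weeks. In cortex the 3 short-term libraries were the lowest of Lama4 and the 3-week library lay with the late ones, unlike Col4a1 and Col4a2. Long-term against short-term UPM gave 1.25 ± 0.43 for Lama4 (adjusted p = 0.04912). Lama5, the other endothelial alpha chain, varied from 1 to 52 counts in hippocampus and from 5 to 35 in cortex, and passed in 0 comparisons. The pial chain Lama1 (0 to 22 counts) and the gamma chain Lamc3 (1 to 34 counts) passed in 0 as well. Lama2 overlaps the antisense gene Gm48084 at its last exon.

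Collagen VI was led by Col6a1, which had the smallest p of the 41 genes tested between the sets. In hippocampus it was at 11.5 CPM in the control, 2.42, 1.14 and 1.35 CPM at 3, 5 and 7 days, and 2.21, 6.01, 7.02, 13.0 and 18.02 CPM at 3, 8, 12, 16 and 20 weeks. Cortical levels were 13.3 CPM in the control, 5.37, 3.71 and 3.73 CPM at 3, 5 and 7 days, and 3.71, 14.1, 14.8, 19.4 and 21.4 CPM at 3, 8, 12, 16 and 20 weeks. The early libraries were lowest in both tissues without overlap, and from 8 to 20 weeks the level rose at each time in both tissues. The set difference was 2.26 ± 0.22 (adjusted p = 1.123e-08) and that between hippocampus and cortex -0.84 ± 0.18 (adjusted p = 0.002316). The slope over 8 to 20 weeks was 0.96 ± 0.18 per 10 weeks (adjusted p = 0.03132), the single slope among the 45 tested genes that passed. It kept its direction when any 1 of the 8 libraries was left out (0.77 to 1.18), and lost the call without hippocampus at 8 weeks (adjusted p = 0.2082) or 20 weeks (0.2657), or cortex at 12 weeks (0.06981), 16 weeks (0.05251) or 20 weeks (0.05422). The control, whose time is not given, lay inside the range of 8 to 20 weeks in hippocampus and below it in cortex, with 0.17 ± 0.37 between late UPM and control. Of the genes called by slope, 35 of all 13968 fell and 7 rose.

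Col6a2 and Col6a3, which assemble with Col6a1, did not share its slope call (0.79 ± 0.38 and -0.06 ± 0.43). Col6a2 had 0 to 50 counts and passed in 0 comparisons (19 counts in the control of hippocampus and 49 in that of cortex). Col6a3 was at 1.52 CPM in the hippocampal control, 0.372, 2.48 and 0 CPM at 3, 5 and 7 days, and 2.35, 8.74, 4.93, 5.66 and 4.69 CPM at 3, 8, 12, 16 and 20 weeks. In the cortical libraries it was at 0.889 CPM in the control, 3.10, 2.12 and 2.58 CPM at 3, 5 and 7 days, and 1.99, 0.832, 1.42, 0.560 and 2.57 CPM at 3, 8, 12, 16 and 20 weeks. Its hippocampal levels were highest at 8 to 20 weeks, while its cortical levels were no higher there than at 3 to 7 days. The test of that difference between tissues, long-term against short-term, gave 3.34 ± 0.99 (edgeR, adjusted p = 0.3839) and did not pass. For this test 0 of 45 genes passed with edgeR, DESeq2 or limma-voom (0 of all genes, 7.65% of all at an unadjusted p under 0.05), and 3 had an unadjusted p under 0.05: Col6a3, Col4a6 and Col6a4. The last 2 had 0 counts in all hippocampal short-term libraries, so no fold is given. Col6a5 had 0 to 15 counts in hippocampus and 0 to 5 in cortex (2.31 ± 0.73, adjusted p = 0.03886), with 0 counts in 4 cortical libraries. It met the count minimum only through hippocampus, so that direction is partly fixed by the rule.

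Among fibrillar collagens, 6 of 10 were higher in the control and late set (19% of all genes): Col5a1, Col5a3, Col11a1, Col11a2, Col24a1 and Col27a1. Of these, Col5a3, Col11a2 and Col24a1 met the count minimum only through that set, so their higher level there is partly fixed by the rule. Types V and XI seed and thin the fibres of collagens I to III. Col5a1 was at 8.53 CPM in the hippocampal control, 0, 0.381 and 3.74 CPM at 3, 5 and 7 days, and 3.68, 9.28, 14.4, 12.2 and 10.4 CPM at 3, 8, 12, 16 and 20 weeks. In cortex it was at 26.9 CPM in the control, 6.44, 2.25 and 3.48 CPM at 3, 5 and 7 days, and 2.65, 14.1, 12.4, 14.1 and 16.6 CPM at 3, 8, 12, 16 and 20 weeks. No early library reached the others of its tissue, and the cortical control was the highest of all 18. The set difference of Col5a1 was 2.27 ± 0.35 (adjusted p = 2.759e-05), and late UPM against control within the set was -0.35 ± 0.24.

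Col11a1 was at 15.5 CPM in the hippocampal control, 7.06, 4.76 and 3.89 CPM at 3, 5 and 7 days, and 1.47, 18.6, 14.2, 15.8 and 10.49 CPM at 3, 8, 12, 16 and 20 weeks. Cortical levels were 9.90 CPM in the control, 2.86, 4.76 and 3.09 CPM at 3, 5 and 7 days, and 2.91, 11.2, 12.3, 13.6 and 10.8 CPM at 3, 8, 12, 16 and 20 weeks. The sets were apart in both tissues, with a difference of 1.79 ± 0.20 (adjusted p = 1.065e-07). Col27a1, a fibrillar chain of cartilage, stood at 1.46 ± 0.22 (adjusted p = 6.566e-06), with 1.32 to 3.89 CPM in the 8 early libraries and 5.21 to 9.63 CPM in the 10 others. Col5a3 was apart by little in hippocampus, where the control at 2.103 CPM was next to 5 days at 2.095 CPM. Col24a1, found in developing cortex and bone, had 0 to 14 counts in hippocampus and 0 to 36 in cortex. It stood at -2.08 ± 0.61 in hippocampus against cortex (adjusted p = 0.02454), with 0 counts in 3 hippocampal libraries. Col24a1 met the count minimum only through its cortical libraries, so that direction is partly fixed by the rule. Col11a2, which assembles with Col11a1, had 4 to 54 counts in hippocampus and 1 to 32 in cortex. It was higher in the control and late set (1.38 ± 0.41, adjusted p = 0.00961) and in long-term than in short-term UPM (1.57 ± 0.50, adjusted p = 0.03739). As Col11a2 met the count minimum only through the control and late set, both directions are partly fixed by the rule. Col5a2 had 7 to 90 counts in hippocampus, the most in the control, and 1 to 33 in cortex, and passed in 0 comparisons.

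Collagens I and III, the fibre collagens of meninges, vessel adventitia and bone, did not pass between the sets. In hippocampus Col1a1 had 64 counts in the control, 80, 34 and 32 at 3, 5 and 7 days, and 57, 215, 68, 73 and 1486 at 3, 8, 12, 16 and 20 weeks. Col1a2 had 218 counts in the control, 199, 270 and 86 at 3, 5 and 7 days, and 214, 1019, 375, 265 and 2285 at 3, 8, 12, 16 and 20 weeks. Col3a1 had 14 counts in the control, 28, 22 and 11 at 3, 5 and 7 days, and 23, 141, 18, 17 and 230 at 3, 8, 12, 16 and 20 weeks. All 3 were highest at 20 weeks and next at 8 weeks, while at 12 and 16 weeks their CPM lay among those of the other libraries, so the late libraries overlapped the rest. In cortex Col1a1 had 85 counts in the control, 155, 79 and 102 at 3, 5 and 7 days, and 148, 90, 41, 32 and 57 at 3, 8, 12, 16 and 20 weeks. Col1a2 had 346 counts in the cortical control, 467, 193 and 504 at 3, 5 and 7 days, and 519, 394, 236, 263 and 225 at 3, 8, 12, 16 and 20 weeks. Col3a1 had 27 counts in the cortical control, 41, 33 and 84 at 3, 5 and 7 days, and 63, 21, 11, 10 and 8 at 3, 8, 12, 16 and 20 weeks. In cortex none of the 3 peaked at 8 or 20 weeks, and Col3a1 was lower in the control and from 8 weeks on (1.03 to 3.43 CPM) than in any early library (4.37 to 10.8 CPM), opposite to collagen IV. None of the 3 genes passed in a comparison: late UPM against control within the set gave 1.03 ± 1.7 for Col1a1, 0.72 ± 1 for Col1a2 and 0.67 ± 1.5 for Col3a1.

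The 2 high hippocampal libraries differed in bone and smooth muscle genes, and both were high in fibroblast markers. At 20 weeks Col1a1 was at 183.4 CPM, and the counts of Col1a2 per count of Col1a1 were 1.54, against 2.49 to 7.94 in the other hippocampal libraries and 2.44 to 8.22 in cortex. The same library held the bone genes Ibsp (40 counts, at most 18 in the 7 hippocampal libraries other than 8 and 20 weeks), Bglap (32, at most 4), Bglap2 (23, at most 5) and Mmp13 (17, at most 0). Their summed level was 13.8 CPM at 20 weeks and at most 3.62 CPM in the other hippocampal libraries, and 0.381 to 4.71 CPM in cortex. These 4 belong to a list of 17 bone, cartilage and osteoblast genes chosen after the values were seen, of which 7 were highest at 20 weeks and Sp7, Mepe, Sost and Ifitm5 were at 0 there. At 8 weeks those 4 genes summed to 0.109 CPM, and the smooth muscle genes stood out instead. Acta2 had 874 counts (221 at 20 weeks, at most 242 in the other 7), and 10 smooth muscle and arterial wall genes, also chosen after the values were seen, summed to 302.4 CPM against 109.4 to 194.3 CPM. The markers of meningeal and perivascular fibroblasts summed to 433.9 CPM at 8 weeks, 311.0 CPM at 20 weeks and 127.0 to 286.2 CPM in the other 7. The part of bone, vessel wall or meninges in these collagen levels was not tested. Of the 46 genes, 13 were highest among the 9 hippocampal libraries at 8 weeks (7.98% of all genes) and 13 at 20 weeks (10.3% of all genes).

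**Figure D3:**
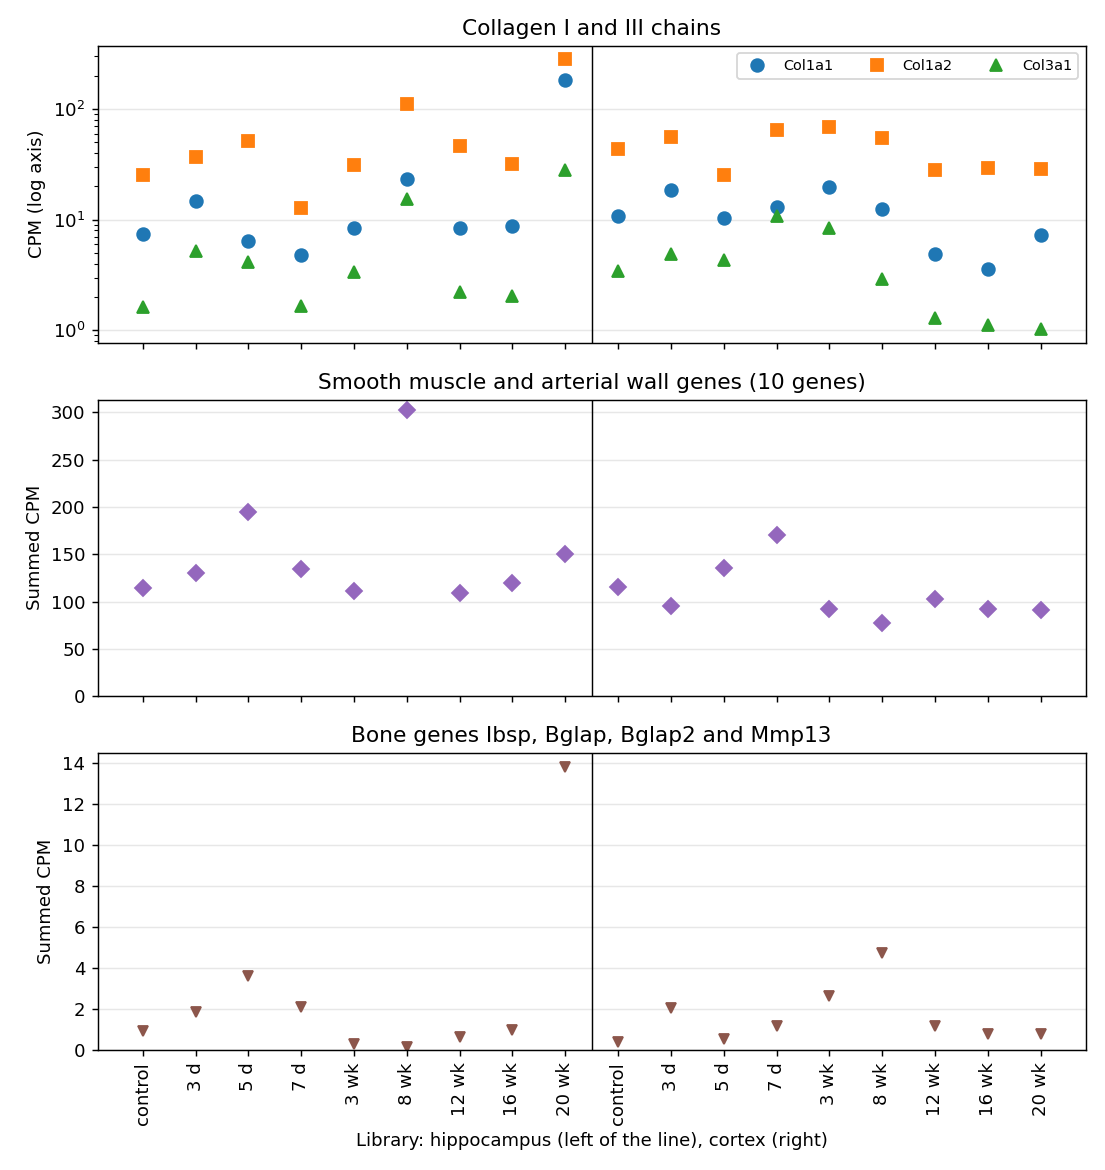
Top: CPM (log axis) of Col1a1, Col1a2 and Col3a1 in each library, hippocampus left and cortex right of the line. Middle and bottom: summed CPM of 10 smooth muscle and arterial wall genes and of the bone genes Ibsp, Bglap, Bglap2 and Mmp13; collagens I and III peak in hippocampus at 20 weeks and 8 weeks, smooth muscle genes at 8 weeks (302.4 CPM) and bone genes at 20 weeks (13.8 CPM).

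FACIT collagens lie on the surface of fibres, and the group of 7 measured here held 2 that passed between the sets, Col16a1 and Col19a1. Col19a1, which some interneurons make, was at 34.6 CPM in the hippocampal control, 14.7, 9.90 and 13.6 CPM at 3, 5 and 7 days, and 18.2, 28.7, 32.4, 37.1 and 32.5 CPM at 3, 8, 12, 16 and 20 weeks. In the cortical libraries it was at 45.6 CPM in the control, 32.1, 18.3 and 15.3 CPM at 3, 5 and 7 days, and 20.9, 38.8, 30.9, 43.7 and 39.2 CPM at 3, 8, 12, 16 and 20 weeks. Hippocampal ranges of the sets did not overlap, and in cortex the 3-day library lay above the one of 12 weeks. The set difference was 1.04 ± 0.13 (adjusted p = 8.717e-07) and hippocampus stood at -0.39 ± 0.11 against cortex (adjusted p = 0.02347). In hippocampus alone Col19a1 was the 1 of 42 genes that passed between long-term and short-term UPM (0.777% of all genes), at 1.24 ± 0.24 (adjusted p = 0.04966). In cortex alone 0 of 41 genes passed with edgeR (0 of all genes, 21.2% of all at an unadjusted p under 0.05) or limma-voom, 4 did with DESeq2, and 10 had an unadjusted p under 0.05. Both of these turn on the 3-week libraries of the early set: without that library 13 genes passed in hippocampus (16.5% of all genes) and 16 in cortex (22.8%).

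Col16a1, a FACIT chain of many connective tissues, was at 10.8 CPM in the hippocampal control, 5.58, 2.86 and 8.37 CPM at 3, 5 and 7 days, and 5.00, 18.7, 12.7, 13.6 and 25.6 CPM at 3, 8, 12, 16 and 20 weeks. In cortex it was at 19.7 CPM in the control, 7.63, 4.63 and 6.31 CPM at 3, 5 and 7 days, and 3.44, 18.7, 14.3, 13.8 and 16.3 CPM at 3, 8, 12, 16 and 20 weeks. The early libraries were lower without overlap in both tissues (1.57 ± 0.20, adjusted p = 5.547e-07). Col9a2, Col9a3, Col12a1, Col14a1 and Col22a1 had 0 to 150 counts each and passed in 0 comparisons. Of these, Col9a3 shares its last exon with the antisense gene Tcfl5.

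Col25a1, a membrane-bound collagen of neurons whose shed part is found in amyloid plaques, was the gene of this family with the smallest p between the tissues. In hippocampus it was at 41.2 CPM in the control, 50.7, 63.6 and 52.0 CPM at 3, 5 and 7 days, and 24.4, 40.6, 38.2, 26.7 and 31.1 CPM at 3, 8, 12, 16 and 20 weeks. Cortical levels were 12.1 CPM in the control, 25.4, 30.8 and 24.9 CPM at 3, 5 and 7 days, and 13.5, 13.7, 17.5, 24.6 and 17.71 CPM at 3, 8, 12, 16 and 20 weeks. Hippocampus lay above cortex at each time, by little at 16 weeks, and in both tissues the 3 short-term libraries were the highest of the 9. The tissue difference was 1.03 ± 0.13 (adjusted p = 1.473e-05), and it passed in each library set alone (1.01, adjusted p = 0.001562 in the early set, and 1.06, adjusted p = 0.0236 in the other). Col25a1 was the 1 gene lower in long-term than in short-term UPM (-0.71 ± 0.14, adjusted p = 0.005256).

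Inside the early set, the 3-week Col25a1 levels were the lowest. The 3-week libraries stood at -1.11 ± 0.22 against 3 to 7 days, which did not pass over all genes with edgeR (adjusted p = 0.2949) and did with DESeq2 (adjusted p = 0.004111). Over its other alternatives the adjusted p was 0.05521 to 1. Against the control, short-term UPM stood at 0.73 ± 0.22 (adjusted p = 0.06793), and the set difference, -0.44 ± 0.18, did not pass. With the set as a covariate the long-term to short-term difference was -1.09 (edgeR, adjusted p = 0.0841). That fit rests on the same 3-week and short-term libraries. Of the other membrane-bound collagens, Col23a1 was higher in the control and late set (0.88 ± 0.25, adjusted p = 0.008298), with 33.6 CPM in hippocampus at 20 weeks as its highest level, and Col13a1 passed in 0 comparisons.

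Col8a1 and Col8a2, the short chains of the network under corneal and vascular endothelium, passed in 0 comparisons. Col8a1 was at 1.75 CPM in the hippocampal control, 40.3, 2.10 and 0 CPM at 3, 5 and 7 days, and 10.1, 12.8, 8.25, 16.7 and 13.1 CPM at 3, 8, 12, 16 and 20 weeks. In the cortical libraries it was at 9.14 CPM in the control, 25.5, 6.22 and 10.7 CPM at 3, 5 and 7 days, and 14.2, 4.85, 6.63, 6.05 and 2.31 CPM at 3, 8, 12, 16 and 20 weeks. The 3-day library was the highest in each tissue. The summed markers of choroid plexus epithelium were also highest there, at 7141 CPM in hippocampus and 4301 CPM in cortex, against 53.6 to 4840 CPM and 17.9 to 2053 CPM in the other libraries. In hippocampus at 7 days, where Col8a1 and Col8a2 had 0 counts, these markers summed to 59.4 CPM. Their part in the levels of Col8a1 and Col8a2 was not tested.

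Of the remaining collagens, Col26a1 was at 0 to 0.381 CPM in the 4 early hippocampal libraries and 1.60 to 3.85 CPM in the 5 others, with a set difference of 2.34 ± 0.44 (adjusted p = 0.0001361). Col26a1 met the count minimum only through the control and late set, so that direction is partly fixed by the rule. Col7a1, the chain of anchoring fibrils under skin, had 0 to 3 counts in early libraries and 3 to 16 in the others and was too low to be tested between the sets, as were Col4a4, Col4a6, Col6a4 and Col6a5. Col15a1 and Col18a1, vessel basement membrane collagens whose ends are released as restin and endostatin, had 0 to 46 and 1 to 62 counts and passed in 0 comparisons. Col18a1 overlaps the antisense gene Slc19a1 at its last exon.

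**Figure D4:**
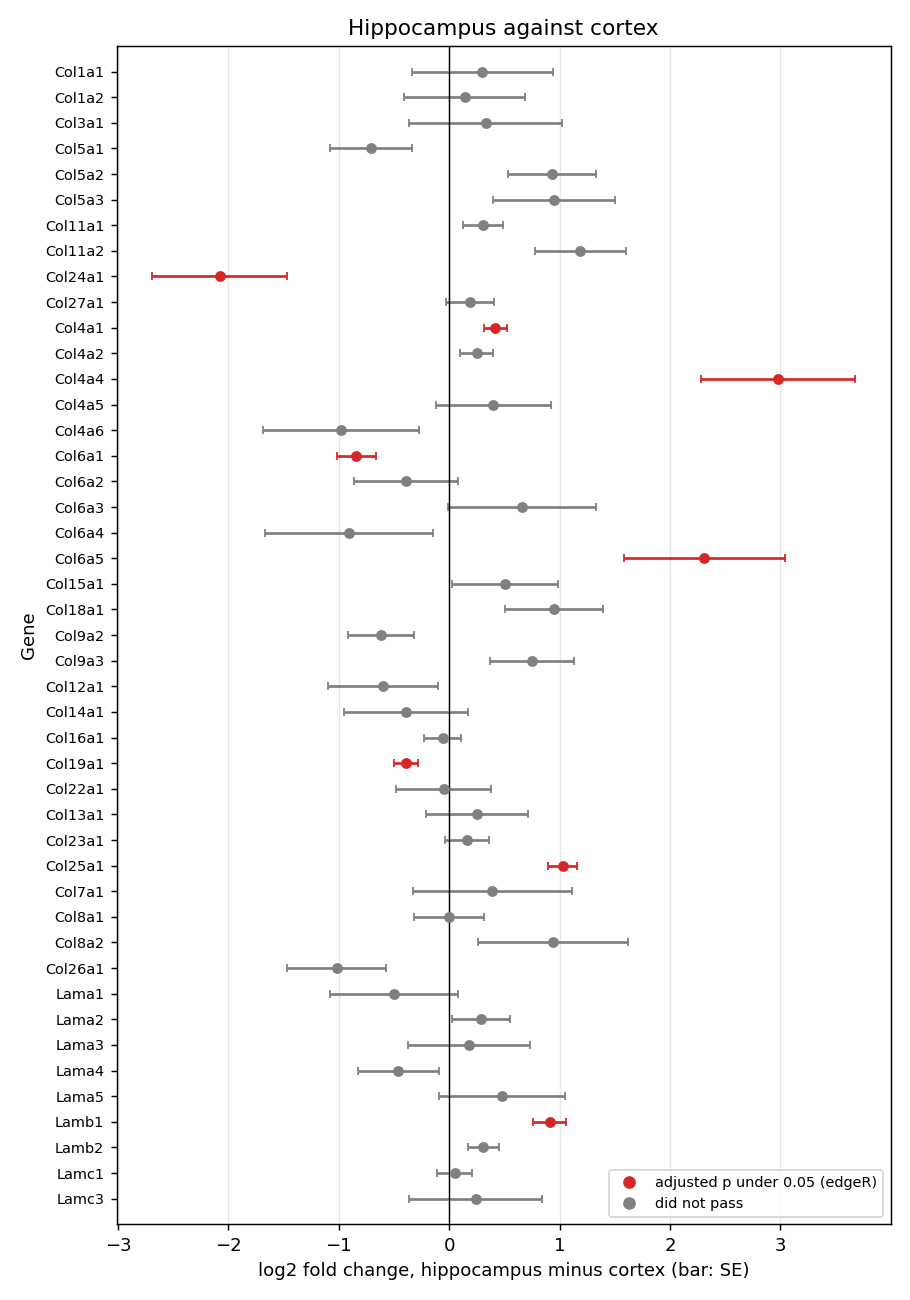
Log2 fold change of hippocampus against cortex (horizontal, bars are SE) for 45 of the 46 genes (vertical, by class) from the edgeR fit over 18 libraries, red where the adjusted p was under 0.05. Col25a1 (1.03), Lamb1 (0.91), Col4a1 (0.42), Col4a4 (2.98) and Col6a5 (2.31) lie to the right of 0, and Col6a1 (-0.84), Col19a1 (-0.39) and Col24a1 (-2.08) to the left. Col4a4, Col6a5 and Col24a1 met the count minimum only through the tissue where they were higher.

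The 9 tissue calls among the 46 genes made up a share near the 16.7% of all genes, and they pointed both ways. Col25a1 and Col19a1, which neurons make, stood at 1.03 and -0.39. Col4a1, Lamb1 and Col6a1 stood at 0.42, 0.91 and -0.84. Others, such as Col4a4, Col6a5 and Col24a1, were chains of low count, which met the count minimum only through the tissue where they were higher. Which cells gave these differences was not tested. The median difference over the 46 genes was 0.24, against 0 over all genes. Between the tissues 1 of 15 mural cell markers and 0 of 16 endothelial markers passed (medians 0.25 and 0.02). Of 10 astrocyte markers 5 were higher in hippocampus (median 0.21), and of 10 oligodendrocyte markers 4 were (median 0.27). Of 15 choroid plexus markers 1 passed, but all 15 were above 0 (median 1.57). Of 10 neuron markers 1 was higher and 3 lower, of 17 fibroblast markers 1 was higher, and of 8 microglia markers 0 passed. In the control and late set alone 15 of the 46 passed (12 higher in hippocampus and 3 lower, 20.3% of all genes), and in the early set alone 1 did (Col25a1, 5.25% of all genes).

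**Figure D5:**
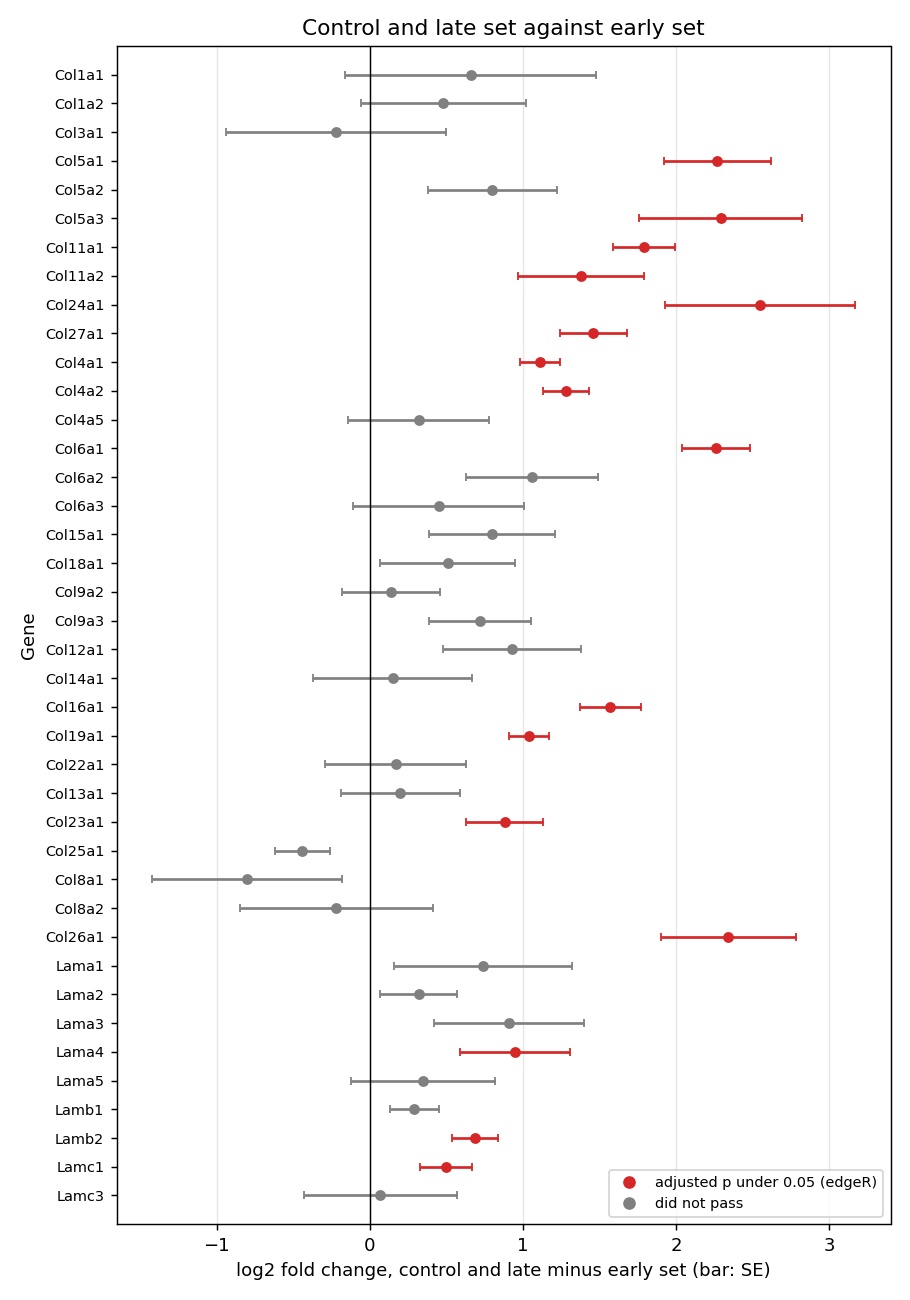
Log2 difference between the control and late set and the early set (horizontal, bars are SE) for 40 of the 41 genes tested (vertical, by class), red where the adjusted p was under 0.05. The 16 red points all lie to the right of 0, from Lamc1 (0.50) to Col24a1 (2.55), while Col1a1, Col1a2 and Col3a1 have bars that cross 0. Of the red points, Col5a3, Col11a2, Col24a1 and Col26a1 met the count minimum only through the control and late set.

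Genes that act on collagens and laminins were also counted between the sets, where 19% of all genes were higher in the control and late set and 20.3% lower. Of 23 genes for making and processing collagen chains, 7 were higher in the control and late set and 3 lower. Bmp1, which trims fibrillar procollagens, was higher (1.59 ± 0.16, adjusted p = 1.007e-08), as was P3h3 of the prolyl hydroxylase family (1.33 ± 0.17, adjusted p = 7.339e-07). The chaperone Serpinh1 (-0.99 ± 0.26, adjusted p = 0.00337), the folding isomerase Ppib (-0.69 ± 0.10) and the hydroxylase subunit P4ha1 (-0.46 ± 0.13) were lower. Of 15 receptors and their partners, 6 were higher and 1 lower: Utrn (0.75 ± 0.09) and Dmd (0.46 ± 0.09), the cytoskeletal partners of the laminin receptor dystroglycan, were higher, as was its gene Dag1 (0.31 ± 0.07), and the integrin chain Itgb1 was lower (-0.51 ± 0.12). Of 15 other basement membrane genes, Agrn, a heparan sulfate proteoglycan, was the 1 that passed (1.18 ± 0.10, adjusted p = 2.035e-09).

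Markers of several cell types differed between the sets, in both directions. Of the mural cell markers, 6 of 14 were higher and 0 lower, among them Pdgfrb (0.89 ± 0.27), Notch3 (1.12 ± 0.30) and Atp13a5 (1.84 ± 0.34). Of 16 endothelial markers, 4 were higher (Flt1 0.73 ± 0.09) and 2 lower (Itm2a -0.96 ± 0.12, Ly6c1 -0.62 ± 0.13). Of 10 astrocyte markers 6 were lower and 0 higher, of 8 microglia markers 3 were lower and 1 higher, and of 10 neuron markers 3 were lower and 3 higher. Of 10 oligodendrocyte markers 1 was higher, and of 15 choroid plexus markers 0 passed with edgeR, also by unadjusted p. Of 17 fibroblast markers 1 was higher, and of 6 nuclear long non-coding RNAs 5 were higher (median 2.31). The summed mural markers were 97.7 to 158.8 CPM in early and 121.0 to 309.3 CPM in the other hippocampal libraries, and 113.5 to 139.4 CPM and 111.7 to 140.9 CPM in cortex, so they overlapped in both tissues. Their part, and that of RNA quality, in the lower collagen levels of the early set was not tested.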

How the data were processed

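Hippocampus and cortex RNA, pooled over the mice of a group, was made into 3′ libraries primed with oligo-dT and read as single 75-base ends, per the labels' protocols. The deposited values are raw counts per gene symbol, which the authors made on mm10 with Bowtie2, bedtools and edgeR per the submitters' processing notes. Versions, roles of these tools, the annotation and the strand setting are not given in the sources used here. Counts of repeated symbols were summed (23282 lines, 23238 symbols), and in 2 files 27 gene symbols that stood as dates were taken from the matching line of files without them. Library totals were 5.43 to 8.97 M counts, which sets the precision: floors of 3 counts cover counting error only, and reads carry no molecular identifiers.

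The main fits used edgeR 4.0.16 (R 4.3.3): TMM scaling, filterByExpr, and a robust quasi-likelihood F test. P-values were adjusted by Benjamini-Hochberg over all genes tested, threshold 0.05. The tissues were compared with exposure time as a factor; in all others that span both tissues, tissue entered as a covariate. Alternatives were DESeq2 1.42.0, limma-voom (limma 3.58.1), other scalings and filters, each library left out, exposure time as a block, 1 library set alone and the set as a covariate. Fits of some comparisons were also run on simulated counts, drawn independently with a change only along the comparison tested. These held no other difference by library set or time and no outlying library. That run can therefore not show how the calls hold under such features. Libraries of the same time deviated from the mean of tissue and set with r of -0.15 to 0.18 across 13942 genes between the tissues. Those of different times did so with r of -0.19 to 0.18. The main fits other than that of the tissues therefore assumed no pairing. The comparison of the tissues did pair the libraries of each time, through exposure time as a factor. Without that factor 3 of 37 collagen and laminin genes tested passed between the tissues, against 9 of 46 with it. That fit also left out the library set, which goes with time, so its lower count cannot be read as the effect of pairing.

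The genes and lists were chosen with earlier results of these data known. The text names the genes past the threshold, the 8 with the smallest p in a comparison, a list of main chains and the 3 genes with the smallest p in each other list. Gene positions are from GENCODE M21 and promoter windows from RefSeq on GRCm38.p6. Libraries left out: none. Of the 46 genes, 1 is counted but not reported here by name.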

Additional observations from a re-analysis of the deposited data

Results flagged for a closer look

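In groups of 5 long-term libraries of 1 tissue, 6 of 54 groups tested held a library far from the others by Dixon's test. For genes not chosen by these data, chance gives 1 in 20, or 2.7. The genes here included all that had passed a comparison, and each group set the 3-week library of the early set beside late ones. The 6 can therefore not be weighed against the 2.7. Col1a1 stood at 183.4 CPM in hippocampus at 20 weeks, with the next at 23.5 CPM. In cortex Col11a2 was at 4.435 CPM at 8 weeks (next 1.657 CPM) and Col3a1 at 8.343 CPM at 3 weeks (next 2.91 CPM). Low ones were all 3-week libraries, which belong to the early set: Col11a1 in cortex at 2.913 CPM (next 10.8 CPM), Col4a2 in hippocampus at 8.38 CPM (next 25.6 CPM) and Lama2 in hippocampus at 2.352 CPM (next 6.006 CPM). Col25a1 differed from the control in opposite directions in the tissues: in hippocampus it was at 41.23 CPM in the control and 32.21 CPM on average over 5 long-term libraries, each below the control, and in cortex at 12.06 CPM and 17.42 CPM, each above it. That difference was not tested.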

How the results depend on the processing

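All counts here are of collagen and laminin genes past the threshold. Of the 9 genes between the tissues, 5 passed with a mean of at least 50 counts, 3 with no replicate block for exposure time, 1 in the early set alone and 15 in the control and late set alone; leaving out 1 library gave 6 to 10. Long-term against short-term UPM (10) gave 6 with limma-voom, 3 with limma-voom and exposure time as a replicate block, 0 with the library set as a covariate, 5 without the 8- and 20-week hippocampus libraries, 5 without the 3-day libraries (these 2 settings were chosen after seeing the data) and 7 to 15 with 1 library left out. With that covariate Col11a1 stood at -0.93, Col16a1 at -0.51, Col27a1 at -0.49 and Col4a2 at -0.19, against higher values without it. That fit rests on the 3-week and short-term libraries alone, since all exposed libraries of the other set are long-term. In hippocampus alone (1) the count was 6 with DESeq2, 0 with limma-voom, 0 with RLE size factors, 3 with total counts alone, 2 with no filter, 0 with a mean of 50 counts, 0 without the 8- and 20-week libraries and 0 to 13 with 1 library left out. In cortex alone (0) it was 4 with DESeq2 and 0 to 16. Short-term UPM against control (6) gave 0 to 7, with 0 without either control. The 3-week comparison (0) gave 1 with DESeq2 and 0 to 0. The slope (1) gave 0 without the 8- and 20-week hippocampus libraries and 0 to 1. The set difference (16) gave 10 with a mean of 50 counts and 15 to 18. Long-term against control, late against control and the difference between tissues stayed at 0 (0 to 0).

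In long-term UPM against the control with 1 library left out, Lama3 ranged from -0.06 to 1.35 and Col5a1 from -1.17 to 0.23 (late libraries alone -0.91 to 0.43), with the reversal of Lama3 without the hippocampal control and those of Col5a1 without the cortical one. The replicate block, which counts both tissues of a time as 1 source, was fitted in limma-voom and gave 7 for short-term UPM against control (7 in limma-voom without it), 19 for the sets (20 without it) and 1 for the slope (1 without it). The cause of these changes was not tested, beyond the fewer genes that a stricter filter tests. Scaling by total counts alone moved the share of higher calls over all genes from 44.9% to 59.7% between tissues, from 43.7% to 14.3% for short-term UPM against control, from 53.3% to 83.1% for long-term against short-term (hippocampus alone 78.7% to 94.5%) and from 48.4% to 77.2% between the sets, with medians over all genes of 0.06, -0.18, 0.15, 0.21 and 0.19. Depth limits the chains under about 10 counts, such as Col6a4, Col6a5 and Col7a1, for which a library at 0 allows up to 0.552 CPM.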

Other observations

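Some other matrix genes differed between the tissues, where 16.7% of all genes passed. Higher in hippocampus were Sparc, a collagen-binding matrix protein (0.73 ± 0.08, adjusted p = 3.311e-06), Smoc2 of the same family (1.31 ± 0.18, adjusted p = 4.063e-05) and the laminin-binding integrin chain Itga7 (1.41 ± 0.24, adjusted p = 0.0003869). Adamts1, a matrix protease (0.88 ± 0.16, adjusted p = 0.0004967), and the growth factor Tgfb2 (2.13 ± 0.15, adjusted p = 5.472e-08) were also higher there. Utrn (-0.36 ± 0.09) and Dmd (-0.27 ± 0.08), which tie the laminin receptor dystroglycan to the cytoskeleton, were lower in hippocampus. Of 17 TGF-beta ligands, receptors and targets 2 passed between the tissues, both higher in hippocampus, and of 15 other basement membrane genes 2 did, shares below that of all genes.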
